A study of Mus musculus with 8 samples.

Results

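The genes described here are the type II hair shaft keratins Krt81, Krt82, Krt83, Krt84, Krt86 and Krt87, taken as the rows whose gene symbol equals one of these names in every deposited table. All 6 were found once in each of the 8 libraries, among 55418 genes. Total RNA of mouse skin was sequenced from mice labelled hairloss, which carry a spontaneous mutation, and from wildtype mice. Skin of each genotype was taken at postnatal days 0, 16, 19 and 28, with 1 library per genotype and day. The sources used here do not give the mutated gene, the strain, the sex, the body site or how many animals went into a library. With 1 library per group, a difference at a single day describes those 2 libraries and has no replicate error, and no p-value is given for it.

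Keratins form the intermediate filaments of epithelial cells as obligate pairs of a basic type II chain and an acidic type I chain. The hair keratins are a cysteine-rich branch of this family, made by the differentiating cells of the hair shaft above the matrix of the hair bulb and cross-linked there with keratin-associated proteins. In human follicles KRT81, KRT83 and KRT86 are keratins of the hair cortex, in which variants cause the brittle hair of monilethrix, KRT82 is a keratin of the hair cuticle, and KRT84 is best known from the filiform papillae of the tongue. Human KRT87 is a pseudogene, whereas mouse Krt87 is annotated as protein-coding. Hair follicles of young mice pass through growth, regression, rest and renewed growth, and shaft keratins are made in the growth phase. The labels name no hair cycle stage.

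All 6 genes lie on mouse chromosome 15 (build mm10, coordinates of GENCODE M21), at places 3 to 8 among the 24 type II keratin genes considered there. These 24 are a chosen list that does not hold Krt85, so genes outside the list may lie between them. In genomic order they are Krt87 (chr15:101431038-101438804, minus strand), Krt81 (chr15:101459061-101463751, minus strand), Krt86 (chr15:101473478-101479986, plus strand), Krt83 (chr15:101485130-101491512, minus strand), Krt84 (chr15:101525026-101532820, minus strand) and Krt82 (chr15:101541214-101550667, minus strand). No other gene listed in the files overlapped any of them. Krt81, Krt83 and Krt86 are close copies of each other, with coding sequences 91.4% to 93.2% identical, and Krt87 was 87.1% to 88.0% identical to these 3. Krt82 shared 65.8% to 67.0% of its coding bases with those 4 genes. Krt84 was the most distant, at 57.8% to 60.2% identity to the other 5, and its coding sequence of 1809 bases was longer than the 1437 to 1548 bases of the others.

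This likeness bears on how reads can be counted. Of the 50-base stretches of the coding transcript, 43.5% in Krt81, 43.3% in Krt86, 36.9% in Krt87 and 23.2% in Krt83 also occur in another gene. Krt87 shared 11.8% with Krt81, 11.6% with Krt86 and 9.11% with Krt83, so part of its 36.9% lies in a gene not described here. For Krt82 and Krt84 the share was 0 of 2061 and 0 of 2521 stretches, so no exact stretch of this length was shared. Shorter or inexact matches were not examined. The levels of Krt81, Krt83, Krt86 and Krt87 relative to each other are therefore uncertain, because the sources used here do not say how the authors assigned shared reads. The sum of the 4 is uncertain in the same way.

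Promoter sequences were at hand from RefSeq (GRCm38.p6) for 2 of the 6 genes, Krt84 and Krt82, the 2 neighbours that differ most from the close copies in sequence and level. Each runs from 250 bases before to 50 bases after the annotated start, on the minus strand, chr15:101532771-101533070 for Krt84 and chr15:101550610-101550909 for Krt82. They are shown because both hold the same run of 14 bases at nearly the same place, in capitals.
Krt84: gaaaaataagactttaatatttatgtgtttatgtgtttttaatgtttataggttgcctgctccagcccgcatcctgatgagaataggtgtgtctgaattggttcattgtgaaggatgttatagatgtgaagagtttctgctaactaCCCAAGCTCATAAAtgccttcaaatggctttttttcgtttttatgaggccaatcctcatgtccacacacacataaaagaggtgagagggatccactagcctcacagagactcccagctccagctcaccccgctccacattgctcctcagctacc
Krt82: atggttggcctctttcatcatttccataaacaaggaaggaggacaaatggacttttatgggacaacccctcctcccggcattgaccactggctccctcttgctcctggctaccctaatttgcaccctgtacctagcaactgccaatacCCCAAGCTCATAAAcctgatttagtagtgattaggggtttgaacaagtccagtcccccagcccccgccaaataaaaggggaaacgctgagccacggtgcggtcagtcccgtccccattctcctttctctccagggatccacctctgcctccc
The run CCCAAGCTCATAAA spans bases -104 to -91 before the start in Krt84 and -102 to -89 in Krt82. Searched on both strands, it occurred in 2 of the 32544 promoters of the table (0.00615%), which are these 2. Its last 8 bases, CTCATAAA, occurred in 0.897% of promoters, including 3 of the 7 type I hair keratin promoters in the table, those of Krt32, Krt33b and Krt39. Both strings were chosen after the sequences were seen and are given as a description only.

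Of 3 further strings, TATAAA was found in 13.6% of all promoters on either strand. It was present in Krt84 on the opposite strand, absent from these 300 bases of Krt82, and present in 5 of the 7 type I promoters. CTTTGAA, the core of LEF1/TCF sites, was found in 5.15% of promoters, in neither Krt84 nor Krt82, and in 5 of the 7 type I promoters. TTTTATNG, a HOXC13-type string, was found in 4.06% of promoters, in Krt82 starting at base -198 but not in Krt84, and in 2 of the 7 type I promoters. TATAAA and TTTTATNG can share bases where they overlap. A match of letters is not a bound site.

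The deposited values were read as FPKM, fragments divided by transcript length and by library depth, which allows levels to be compared between genes per length. The spacing of low values gave an estimated 31600000 to 43700000 fragments per library, which places a floor of 3 fragments per 1 kb transcript at 0.0686 to 0.0949 FPKM, for counting error only. Median scaling factors over 11598 expressed protein-coding genes other than keratins and keratin-associated proteins ran from 0.988 to 1.008. In all 8 libraries the skin label had its markers, with 8 epidermal genes (Krt5, Krt14, Krt15, Krt1, Krt10, Lor, Flg and Ivl) summing to between 2499 and 13035 FPKM. Sex-linked genes differed between the genotypes. The Y-linked gene Ddx3y stood at 0, 20.4, 19.4 and 0 FPKM in hairloss at days 0, 16, 19 and 28, against 16.3, 20.1, 15.8 and 16.5 FPKM in wildtype. Xist, the RNA of the inactive X, stood at 76.1, 0.0096, 0.115 and 50.2 FPKM in hairloss on those days, against 51.3, 0.0158, 12.4 and 0.166 FPKM in wildtype. At days 0 and 28 the genotype difference and the difference in Y-linked RNA cannot be told apart. At day 19 the same holds for the difference in Xist, and the wildtype libraries of days 0 and 19 held both kinds of RNA.

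At days 0, 16, 19 and 28, Krt86 stood at 0.162, 143, 45.8 and 0.0211 FPKM in hairloss libraries and at 0.625, 710, 2.79 and 504 FPKM in wildtype libraries. The wildtype level was high at days 16 and 28 and low at days 0 and 19, whereas in hairloss skin it was high at days 16 and 19 and at the limit of detection at day 28. The day 28 hairloss value corresponds to an estimated 1.81 fragments, under the 0.0350 FPKM that 3 fragments give in this transcript, and was the only 1 of the 48 values of these genes below that floor, so no ratio of FPKM is given for it. Hairloss skin held 20.2% of the wildtype level at day 16 and was 16.4-fold higher than wildtype at day 19.

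Krt81 followed the same course over the days, with 0.325, 135, 51.4 and 0.0605 FPKM in hairloss and 1.18, 636, 2.79 and 554 FPKM in wildtype. In hairloss it reached 21.2% of wildtype at day 16 and exceeded wildtype 18.4-fold at day 19. The day 28 hairloss value of Krt81 rests on an estimated 4.87 fragments. Krt81 and Krt86 were thus both close to the floor in hairloss at day 28, where wildtype held 504 FPKM of Krt86 and 554 FPKM of Krt81.

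Krt83 had 0.788, 187, 67.0 and 0.452 FPKM in hairloss skin at the 4 days, against 1.66, 672, 2.17 and 679 FPKM in wildtype skin. It was the highest of the 6 genes in hairloss at days 16 and 19 and in wildtype at day 28. At day 28 its hairloss level was 0.0665% of wildtype, from an estimated 34.7 fragments, and at day 19 it was 30.9-fold above wildtype.

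Krt87 had 0.790, 81.2, 30.8 and 0.143 FPKM in hairloss skin and 1.79, 369, 2.15 and 371 FPKM in wildtype skin. Its levels at days 16 and 28 were lower than those of the other 3 close copies in wildtype, and its course over the days was the same. Hairloss held 22.0% of the wildtype level at day 16 and 0.0386% at day 28, and stood 14.3-fold above wildtype at day 19.

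**Figure D1:**
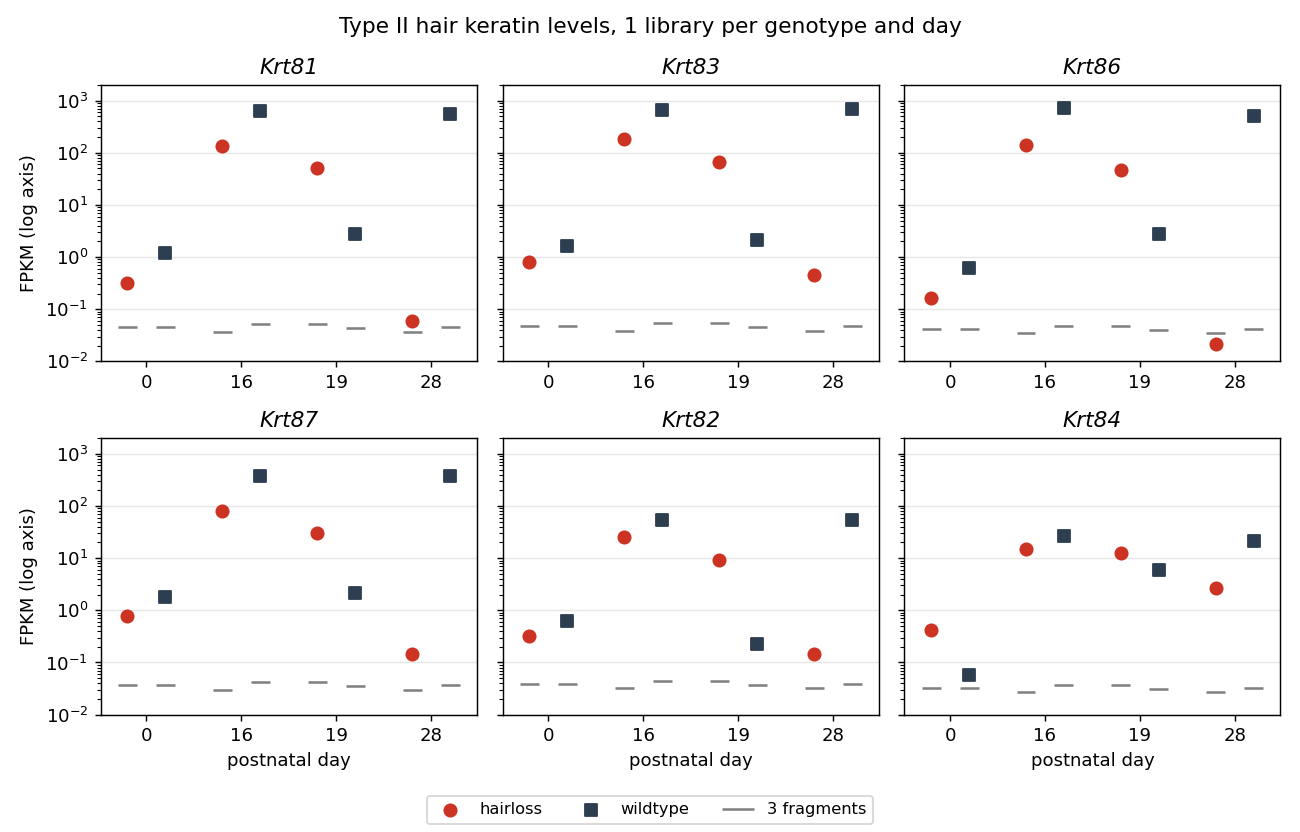
Level of each type II hair keratin in FPKM (log axis) by postnatal day, with hairloss as circles left of wildtype as squares, 1 library per point, and grey dashes at the level that 3 fragments would give. Wildtype points are above hairloss points at days 16 and 28 and below them at day 19 in all 6 panels, and Krt86 of hairloss at day 28 (0.0211 FPKM) is the only point under its dash.

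Krt82, in human a keratin of the cuticle that sheathes the shaft, was lower than each of the close copies in both libraries of days 16 and 19 and in wildtype at day 28. Its levels over the 4 days were 0.326, 25.3, 9.34 and 0.145 FPKM in hairloss, against 0.633, 54.3, 0.225 and 53.5 FPKM in wildtype. Its hairloss level at day 16 was 46.7% of wildtype, a smaller gap than the 20.2% to 27.8% of the 4 close copies. At day 19 it stood 41.4-fold above wildtype, the largest ratio among the 6 genes on that day, where wildtype rests on an estimated 18.1 fragments. At day 28 hairloss held 0.271% of the wildtype level, from an estimated 13.4 fragments.

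Krt84 departed from the other 5 genes. It had 0.411, 14.8, 12.8 and 2.65 FPKM in hairloss skin at the 4 days, against 0.0588, 27.0, 5.89 and 21.8 FPKM in wildtype skin. The order of the genotypes matched that of the other genes at days 16, 19 and 28, but the gaps were smaller, at 54.7% of wildtype at day 16, 2.18-fold above it at day 19 and 8.24-fold below it at day 28. Its day 28 hairloss value rests on an estimated 297 fragments and is therefore well above the floor. At day 0 Krt84 alone was higher in hairloss, where an estimated 38.3 fragments stood against 5.49 in wildtype. Both values of that day are under 1 FPKM.

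The genotypes were compared at each day on log2(FPKM + 1), counting a gene as higher or lower when it differed at least 2-fold on this scale and reached 1 FPKM in either library. This scale understates the fold of low genes. At day 0 only Krt81, Krt83 and Krt87 reached 1 FPKM, and 0 of these 3 passed in either direction, beside 1.49% of 16685 genes called higher and 1.58% called lower. The differences ran from -0.72 for Krt81 to 0.41 for Krt84, with a median of -0.53 over the 6 genes and -0.01 over the genes compared. Here and below, the median of a list includes its genes that did not reach 1 FPKM. At this depth the 6 genes were low in newborn skin of both genotypes, between 0.162 and 0.790 FPKM in hairloss and between 0.0588 and 1.79 FPKM in wildtype.

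At day 16, 5 of the 6 genes were lower in hairloss, beside 7.39% of the 16186 genes compared, and 0 were higher, beside 5.34%. The differences were -2.30 for Krt86, -2.23 for Krt81, -2.17 for Krt87, -1.84 for Krt83 and -1.07 for Krt82, and Krt84, at -0.83, did not reach 2-fold. The median was -2.01, against -0.08 over the genes compared. In bulk skin, fewer shaft-forming cells and less keratin RNA per cell cannot be told apart, here or at the later days.

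At day 19 all 6 genes were higher in hairloss, beside 6.53% of 16656 genes called higher and 5.76% called lower. Krt83 led with 4.42, followed by Krt81 with 3.79, Krt86 with 3.63, Krt87 with 3.34, Krt82 with 3.08 and Krt84 with 1.01, just past the 2-fold limit. The median level of the 6 genes was 38.3 FPKM in hairloss and 2.48 FPKM in wildtype. The median difference was 3.48, against 0.00 over the genes compared.

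At day 28 all 6 genes were lower in hairloss, beside 6.42% of 16021 genes called lower and 5.6% called higher. The differences were -9.03 for Krt81, -8.95 for Krt86, -8.87 for Krt83, -8.35 for Krt87, -5.57 for Krt82 and -2.65 for Krt84. The size of the first 5 depends on the added 1 FPKM, since their hairloss values were all under 1 FPKM, that of Krt86 below the floor of 3 fragments. The median level was 0.144 FPKM in hairloss and 438 FPKM in wildtype, and the median difference was -8.61, against 0.00 over the genes compared.

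Within wildtype skin, low and high levels of these genes alternated. All 6 were higher at day 16 than at day 0 (beside 11.1% of genes), lower at day 19 than at day 16 (7.63%) and higher again at day 28 than at day 19 (8.09%), where consecutive steps share a library. The day 19 level was 0.323% of the day 16 level for Krt83, 0.393% for Krt86, 0.415% for Krt82, 0.438% for Krt81 and 0.583% for Krt87. Krt84 kept 21.8% and was, with 5.89 FPKM, the highest of the 6 genes in wildtype skin at day 19. Day 28 resembled day 16 in level, with 71.1% (Krt86) to 101% (Krt83) of the day 16 value, and 0 of the 6 genes passed 2-fold in either direction between these days, beside 3.47% of genes called higher and 3.52% called lower.

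Within hairloss skin the levels were high at days 16 and 19 only. All 6 genes were higher at day 16 than at day 0 (beside 10.5% of genes). Between days 16 and 19, 5 of the 6 were lower (beside 2.07%), but these 5 kept 31.9% (Krt86) to 38.1% (Krt81) of their day 16 level, and Krt84, which did not pass, kept 86.9%. All 6 were lower at day 28 than at day 19 (beside 4.5%) and than at day 16 (beside 5.25%). At day 28 Krt84 kept 20.6% of its day 19 level and Krt82 kept 1.55%, whereas Krt83 kept 0.675%, Krt87 0.464% and Krt81 0.118%.

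In hairloss at day 16 and in wildtype at days 16 and 28, Krt83, Krt86 and Krt81 changed places at the top of the order of levels, followed each time by Krt87, then Krt82 and last Krt84. In hairloss at day 19 the close copies were again the highest, but Krt84 (12.8 FPKM) stood above Krt82 (9.34 FPKM). Where the close copies were low the order changed too. Krt84 was the highest of the 6 in hairloss at day 28 (2.65 FPKM, the next being Krt83 at 0.452) and in wildtype at day 19 (5.89 FPKM, the next being Krt86 at 2.79), and stood behind only Krt87 and Krt83 in hairloss at day 0. In wildtype at day 0, where the close copies were low too, Krt84 was last at 0.0588 FPKM. No spread between replicates exists with which to separate neighbours in these orders.

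As a share of the summed FPKM of the 6 genes, Krt84 made up 14.7%, 2.52%, 5.91% and 76.3% in hairloss at days 0, 16, 19 and 28, against 0.988%, 1.10%, 36.8% and 0.999% in wildtype. The 4 close copies together made up 73.7%, 93.2%, 89.8% and 19.5% in hairloss, against 88.4%, 96.7%, 61.8% and 96.6% in wildtype. The 6 genes summed to 2.80, 586, 217 and 3.47 FPKM in hairloss and to 5.95, 2467, 16.01 and 2184 FPKM in wildtype. Their sum was 0.120% of the FPKM of all protein-coding genes in hairloss at day 16 against 0.480% in wildtype, 0.0477% in hairloss against 0.00392% in wildtype at day 19, and 0.000797% in hairloss against 0.435% in wildtype at day 28.

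**Figure D2:**
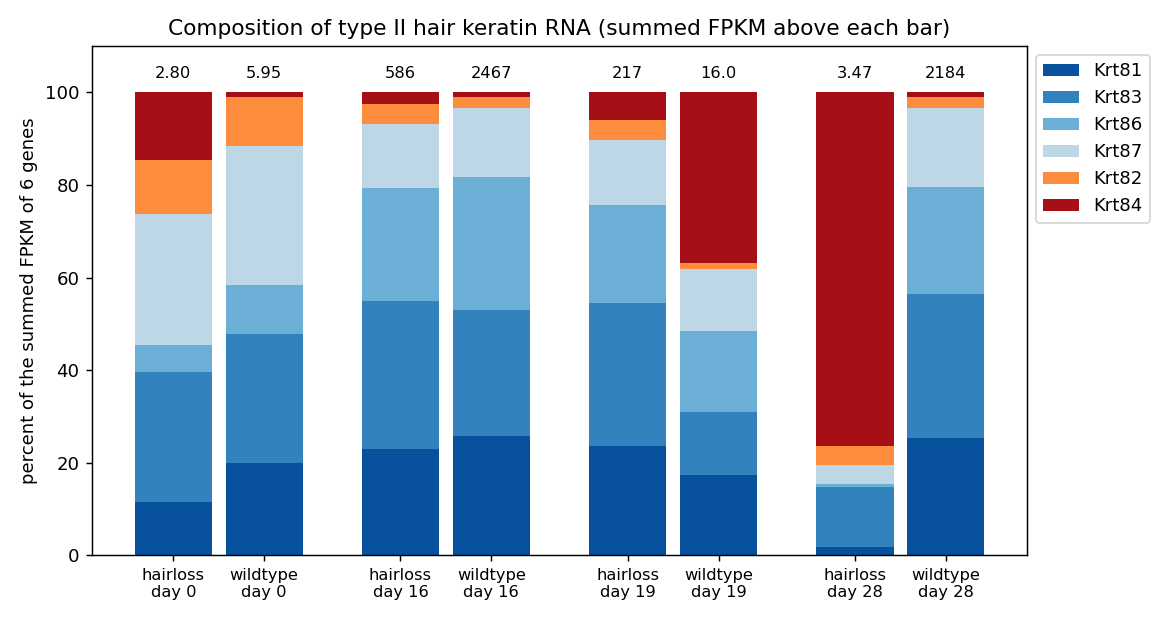
Share of each gene, in percent, in the summed FPKM of the 6 type II hair keratins, with hairloss left of wildtype at each postnatal day and the sum in FPKM above each bar. Krt84 makes up 76.3% of the sum in hairloss at day 28 and 36.8% in wildtype at day 19, the libraries with sums of 3.47 and 16.01 FPKM, and at most 14.7% elsewhere.

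Type I hair keratins are the partners of these chains in the filament, and 9 of them were summed in the same way (Krt31, Krt32, Krt33a, Krt33b, Krt34, Krt35, Krt36, Krt39 and Krt40). They came to 23.9, 477, 196 and 16.7 FPKM in hairloss and 30.4, 2360, 20.5 and 2228 FPKM in wildtype at days 0, 16, 19 and 28. The ratio of type II to type I was 1.23 in hairloss and 1.05 in wildtype at day 16, 1.11 in hairloss and 0.779 in wildtype at day 19, and 0.980 in wildtype at day 28, so the sums of both sides were of similar size in these libraries. In the other 3 libraries the type II sum was the smaller side. The ratio was 0.117 in hairloss and 0.196 in wildtype at day 0, and 0.207 in hairloss at day 28. Each sum holds only the genes named, and Krt85 is in neither, so the ratio depends on the genes chosen. In those libraries most type I RNA came from 1 gene, Krt35, an early hair keratin of matrix and cuticle cells. Krt35 stood at 12.7 FPKM in hairloss at day 28 against 309 FPKM in wildtype, and at day 0 at 18.4 FPKM in hairloss and 20.5 FPKM in wildtype.

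**Figure D3:**
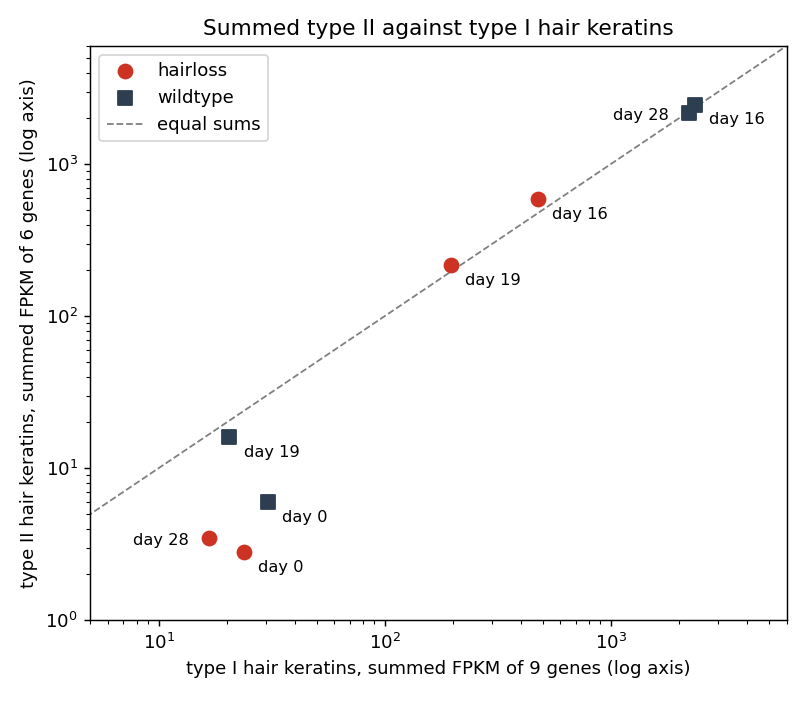
Summed FPKM of the 6 type II hair keratins against that of 9 type I hair keratins (both log axes), hairloss as circles and wildtype as squares, 1 library per point labelled by postnatal day; the dashed line marks equal sums. Hairloss at days 16 and 19 and wildtype at days 16 and 28 lie near the line, while hairloss at day 28 (3.47 against 16.7 FPKM) and both libraries of day 0 lie below it.

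Counted by the same rule, type I hair keratins moved in the same directions as the type II genes. Of the 9, 0 passed at day 0, 8 were lower in hairloss at day 16, 7 were higher at day 19 and 9 were lower at day 28, with median differences of -0.26, -2.04, 3.08 and -4.93. Krt33a, a cortex keratin, had 102 FPKM in hairloss at day 16 against 663 FPKM in wildtype, and 0.0274 FPKM in hairloss at day 28 against 681 FPKM in wildtype. Krt31 had 33.3 FPKM in hairloss at day 19 against 0.915 FPKM in wildtype. Krt34 was listed at 0 in hairloss at day 28 and had 393 FPKM in wildtype. In hairloss at day 28 and in wildtype at day 19, some members of both families kept more of their level than the rest. Beside Krt84, which held 12.1% of wildtype in hairloss at day 28, the type I genes Krt32 and Krt35 held 4.97% and 4.12%. In wildtype, Krt84 kept 21.8% of its day 16 level at day 19, while Krt36 kept 16.4% and Krt32 6.29%. The type I genes were not the same throughout. Krt35 kept only 0.315% in wildtype at day 19, and Krt36 held only 0.687% of wildtype in hairloss at day 28.

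Factors that pattern the hair matrix and act on hair keratin genes were read from a list of 24. At day 0, 0 of the 23 compared passed in either direction. At day 16, 7 were lower in hairloss and 0 higher, with a median of -0.57 over the list. They were Dlx3, Msx2, Foxn1, Lef1, Gata3, Hoxc13 and Msx1. Hoxc13, a homeobox factor known to bind hair keratin promoters, had 16.05 FPKM in hairloss and 40.0 FPKM in wildtype. Lef1, which mediates Wnt signals in hair precursor cells, had 3.50 FPKM in hairloss and 13.9 FPKM in wildtype, and Foxn1, the factor missing in nude mice, had 5.16 FPKM in hairloss and 20.4 FPKM in wildtype. At day 19, 6 were higher and 0 lower. Hoxc13 stood at 9.28 FPKM in hairloss against 3.04 FPKM in wildtype, and Dlx3 at 16.6 FPKM in hairloss against 7.22 FPKM in wildtype. At day 28, 10 were lower and 1, Nfatc1, a stem cell factor of the bulge, was higher. In hairloss Foxn1, Msx2 and Hoxc13 had 1.19, 3.64 and 4.13 FPKM, against 17.4, 35.9 and 32.7 FPKM in wildtype. The median difference over these factors was -0.74 at day 28, beside -8.61 for the type II hair keratins.

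Of 23 other proteins of the hair shaft and its assembly, hairloss skin had 2 lower and 0 higher at day 0. On day 16 it had 17 lower and 2 higher, on day 19 it had 20 higher and 0 lower, and on day 28 it had 20 lower and 0 higher. Their medians were -0.17, -1.78, 2.68 and -6.54. S100a3, a calcium-binding protein of the hair cuticle, had 191 FPKM in hairloss at day 19 against 7.93 FPKM in wildtype, and 7.67 FPKM in hairloss at day 28 against 1767 FPKM in wildtype. Krtap8-1, a keratin-associated protein of the shaft matrix, had 0.0734 FPKM in hairloss at day 28 against 3634 FPKM in wildtype. At day 16 the largest difference in the list was that of Tchh, with 1419 FPKM in hairloss and a listed value of 0 in wildtype. An exact 0 can be a failed estimate in such tables, and no fold is given.

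The neighbouring type II keratins did not share one direction. Of the 18 others considered in the cluster, at day 0 hairloss had 2 above wildtype and 0 below, and at day 16 it had 5 each way. It had 10 above and 1 below at day 19 but 4 above and 6 below at day 28, and the last 3 days had medians of -0.18, 1.34 and -0.29. Krt7, a simple-epithelium keratin beside Krt87, had 2.60 FPKM in hairloss at day 16 against 0.708 FPKM in wildtype, opposite in direction to Krt87 on that day. At days 19 and 28 the differences of Krt7 were 0.98 and -0.79, of the same sign as those of Krt87 but short of 2-fold. Krt75, a companion layer keratin beside Krt82, had the directions of the hair keratins, with 128, 48.7 and 12.98 FPKM in hairloss at days 16, 19 and 28 against 292, 13.6 and 179 FPKM in wildtype. The next gene, Krt6b, a keratin of stressed and outer root sheath epithelium, was higher in hairloss on all 3 days, with 570, 833 and 79.2 FPKM in hairloss against 0.229, 0.236 and 0.170 FPKM in wildtype. Krt72, an inner root sheath keratin further along, had 0.174 FPKM in hairloss at day 28 against 392 FPKM in wildtype, while Krt1 of the suprabasal epidermis had 2623 FPKM in hairloss and 82.1 FPKM in wildtype on that day. From Krt87 to Krt75, 7 genes in a row among the 24 were lower in hairloss at day 28.

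**Figure D4:**
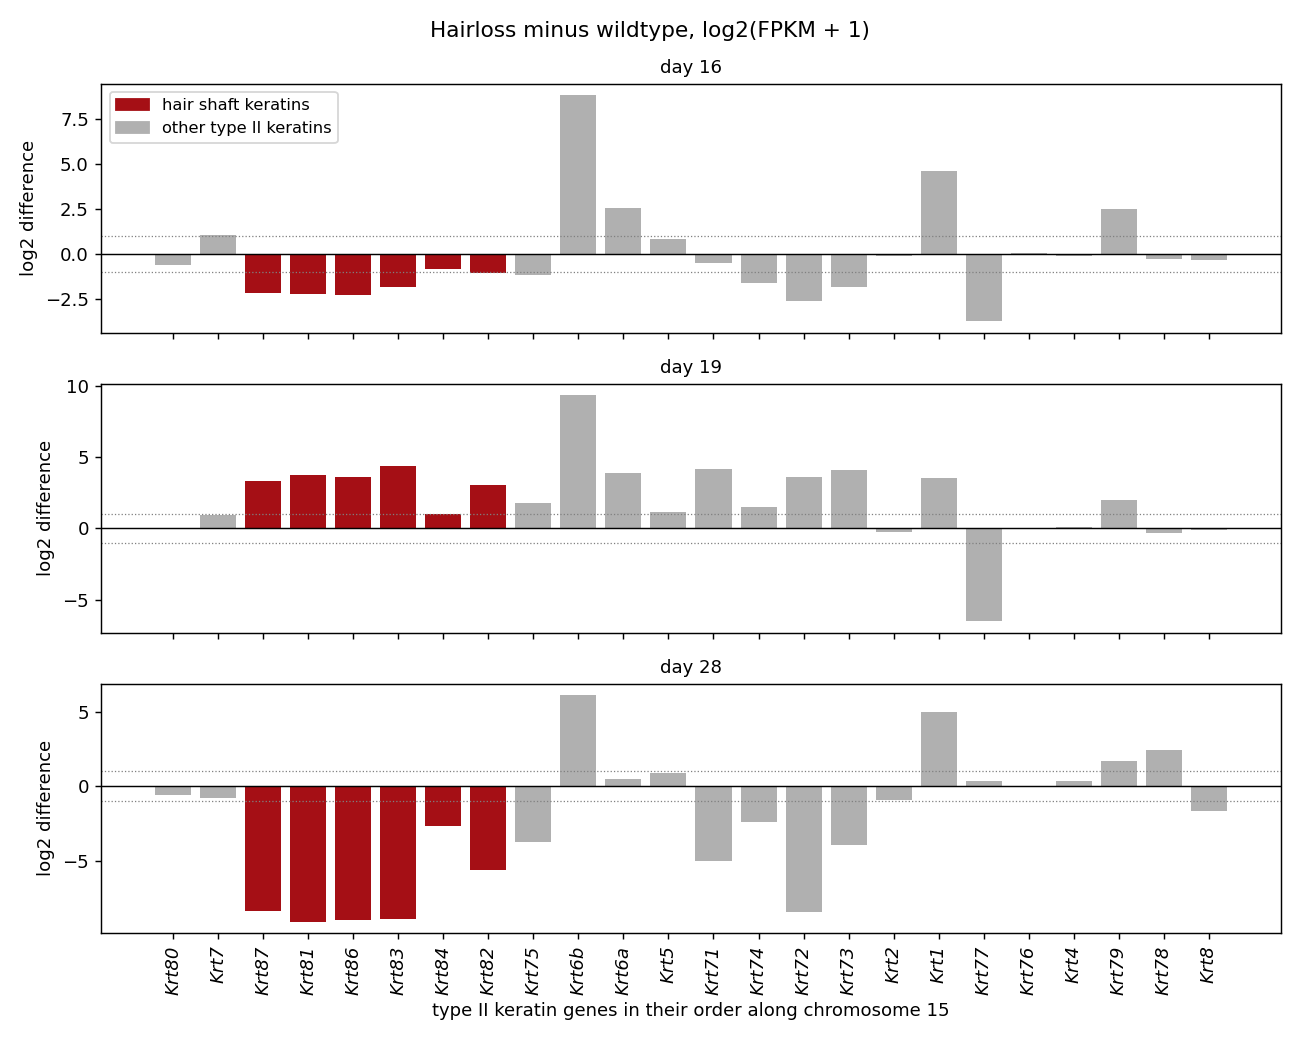
Difference of hairloss minus wildtype in log2(FPKM + 1) for 24 type II keratin genes in their order along chromosome 15, at days 16, 19 and 28, with the 6 hair shaft keratins in red, the others in grey and dotted lines at 2-fold. The red bars are below 0 at days 16 and 28 and above 0 at day 19, while Krt6b is above 0 in all 3 panels (8.86, 9.40 and 6.10).

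Across the 8 libraries the 6 genes were alike in log2(FPKM + 1), which is given as a description. Every gene is read from the same 8 libraries, so differences in depth and tissue composition between libraries enter all of them together. Krt81, Krt83, Krt86 and Krt87 also share sequence, and the part of shared reads in their correlations was not tested. The Pearson correlation of a gene with the mean of the other 5 was 0.999 for Krt81 and Krt86, 0.997 for Krt83, 0.994 for Krt87, 0.988 for Krt82 and 0.892 for Krt84. Among 8688 other protein-coding genes that reached 10 FPKM in at least 1 library, the 10 with the highest correlation with the mean of the 6 were Krtap13-1 (0.999), Gprc5d, Krtap11-1, Krtap4-7, Krtap4-2, Krt33b, Gm11559, Krtap4-16, Gm11562 and Krt34 (0.997). Of these, 5 carry names of keratin-associated proteins and 2 are type I hair keratins. Krtap13-1 had 0.151, 58.8, 27.0 and 0 FPKM in hairloss at days 0, 16, 19 and 28, against 0.326, 176, 1.79 and 183 FPKM in wildtype. Ranked by Spearman correlation, 1 of these 10 genes remained in the first 10, and 4 remained with a pseudocount of 0.1, so the choice of names depends on both settings.

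Markers of other skin cells differed between the same libraries, and their part in the keratin values was not tested. Inner root sheath genes (8 genes, summed) stood at 6191, 1926 and 285 FPKM in hairloss at days 16, 19 and 28, against 8924, 138 and 8954 FPKM in wildtype, with 5 of 8 lower and 1 higher at day 16, 7 of 8 higher at day 19 and 8 of 8 lower at day 28. The 1 higher at day 16 was Tchh with its listed 0 in wildtype, and without it the sums of that day were 4773 FPKM in hairloss and 8924 FPKM in wildtype. Epidermal genes (8 genes) summed to 11999, 13035 and 11332 FPKM in hairloss on these days, against 3663, 4091 and 2499 FPKM in wildtype. At each of these days 4 of the 8 were higher in hairloss, and at day 19 Krt15 and Lor were lower, with 212 and 72.5 FPKM in hairloss against 1018 and 156 FPKM in wildtype. Of the other lists, the 6 pigment cell genes summed to 44.2, 30.6 and 153 FPKM in hairloss at days 16, 19 and 28, against 64.5, 45.9 and 511 FPKM in wildtype, with 2 of 6, 1 of the 5 compared and 6 of 6 lower past 2-fold and 0 higher past it. The 6 skeletal muscle genes summed to 648, 2821 and 6587 FPKM in hairloss at days 16, 19 and 28, against 1483, 6026 and 2961 FPKM in wildtype, with 3 of 6 lower, 5 of 6 lower and 6 of 6 higher. Proliferation genes (7 genes) summed to 174, 135 and 290 FPKM in hairloss at days 16, 19 and 28 and to 111, 71.4 and 303 FPKM in wildtype. Of these, 1 was higher in hairloss past 2-fold at day 16, 5 were higher past it at day 19, and 0 passed 2-fold at day 28. Neutrophil genes (4 genes) summed to 23.1, 16.3 and 3.86 FPKM in hairloss and to 1.09, 3.39 and 0.670 FPKM in wildtype, and of these Ly6g, a defining marker, reached at most 0.302 FPKM in hairloss and 0.0321 FPKM in wildtype over all 8 libraries. The sums of 5 sebaceous gland genes were 175, 134 and 258 FPKM in hairloss at days 16, 19 and 28 and 231, 414 and 226 FPKM in wildtype, with 3, 3 and 2 of the 5 lower in hairloss and 0 higher. The 5 adipocyte genes summed to 599, 558 and 771 FPKM in hairloss and 819, 956 and 598 FPKM in wildtype, and the 5 fibroblast genes to 869, 798 and 1124 FPKM in hairloss and 624, 1657 and 934 FPKM in wildtype. At day 19, 4 adipocyte and 2 fibroblast genes were lower in hairloss, and at day 28, 1 of each was higher.

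A test over all days was possible with limma, taking day as a block and the 4 days as pairs, with 3 residual degrees of freedom. It called 7 of 18724 genes between hairloss and wildtype (0.0374%) at a Benjamini-Hochberg adjusted p of 0.05, and 0 of the 6 type II hair keratins. By limma 2511 genes had an unadjusted p below 0.05, and 0 of the 6 hair keratins were among them. The mean difference of hairloss minus wildtype was -2.05 ± 2.29 (SE, 4 pairs of libraries) for Krt81, with a limma adjusted p of 0.690, and -0.51 ± 0.65 for Krt84, with a limma adjusted p of 0.721. For the other 4 it lay between -2.03 (Krt86) and -0.97 (Krt82), with limma adjusted p-values of 0.678 to 0.787. The test asks only whether the mean difference over the 4 days is large against its spread between days. That spread holds the change of sign at day 19. Hairloss was lower than wildtype on 3 of the 4 days for 5 of the genes and on 2 of the 4 days for Krt84. Without day 28, the mean differences of all 6 genes were above 0, from 0.18 for Krt87 to 0.67 for Krt83.

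Steps between days over both genotypes were tested in the same way with genotype as a block. From day 0 to day 16, limma called 1497 genes (8.0%), 670 higher and 827 lower, and 0 of the 6 hair keratins. Krt84 came nearest, with a step of 4.10 ± 0.92 (SE) and a limma adjusted p of 0.0604. Krt86 had the largest step, 7.87 ± 3.20, with a limma adjusted p of 0.180, and the other 4 had adjusted p-values of 0.201 to 0.225. For Krt84 the limma adjusted p was 0.0459 when only protein-coding genes were tested and 0.0467 with a pseudocount of 0.1. From day 16 to day 19, limma called 3 genes (0.016%) and 0 of the 6, with adjusted p-values of 0.677 to 0.699. From day 19 to day 28 it called 0 genes (0.0%), with 1910 at an unadjusted p below 0.05, and adjusted p-values of 0.868 to 0.985 for the 6, whose levels in hairloss and wildtype differed in opposite directions between those days.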

How the data were processed

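RNA was isolated with RNeasy columns and made into TruSeq libraries, per the labels' protocols. The tools cutadapt and Cuffdiff and the build mm10 are named without versions or settings, per the submitters' processing notes. The sources used here name neither the aligner nor the annotation release. The authors deposited 1 value per Ensembl gene without a unit, and it was read as FPKM because it is not whole and Cuffdiff reports FPKM. How the libraries were scaled to each other is unknown. Of 55418 genes, 55151 were matched by ID to GENCODE M21 for coordinates, gene types and missing symbols.

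From these values log2(FPKM + 1) was computed. At each day genes were compared without a test, by a 2-fold limit on that scale for genes that reached 1 FPKM in one of the libraries compared. The package limma 3.58.1 under R 4.3.3, with trended and robust eBayes, tested genotype with day as a block, and steps between days with genotype as a block, two-sided, over genes reaching 1 FPKM in some library, with Benjamini-Hochberg adjustment over all of them. It was tested on simulated data in which the genotype shift was the same on all days. That simulation does not cover genes whose genotype difference changes sign between days, as here. The p-values measure only the spread between these libraries. Depth was estimated from the spacing of values of genes with 1 transcript of at least 1000 bases. Coding identity came from global alignment of the longest protein-coding transcripts, and shared sequence from 50-base stretches over all GENCODE transcripts. Other steps used Python 3.11.15, numpy 2.4.6, pandas 2.3.3 and biopython 1.88.

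All 6 genes are described. Of each list up to 4 genes with the largest difference at a day could be named, with cluster neighbours, tissue markers and the 10 genes most alike. Krt32, Krt35, Krt36, the full set of 7 regulators lower at day 16, and Nfatc1 and S100a3 at day 28 were named after their values were seen. The genes and lists were chosen with earlier results of these data known. Alternatives were pseudocounts of 0.1 and 5, scaling without keratin genes, no filter, protein-coding genes only, limma without trend, and leaving out days.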

Additional observations from a re-analysis of the deposited data

Results flagged for a closer look

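For 5 of the 6 type II hair keratins the difference of hairloss minus wildtype, in log2(FPKM + 1), passed 2-fold in opposite directions at days 16 and 19, and for all 6 at days 19 and 28. For Krt84 the sign also turned between days 16 and 19, but its day 16 value (-0.83) was short of 2-fold. With 1 library per genotype and day, the change of the difference between days was not tested. From day 16 to day 19 the difference shifted by 6.26 for Krt83, 6.02 for Krt81, 5.92 for Krt86, 5.51 for Krt87 and 4.15 for Krt82. In each case it was below 0 at day 16 and above 0 at day 19, and both values passed 2-fold. From day 19 to day 28 the shift was -13.29 for Krt83, -12.82 for Krt81, -12.58 for Krt86, -11.68 for Krt87, -8.65 for Krt82 and -3.65 for Krt84. All 6 were higher in hairloss at day 19 and lower in hairloss at day 28. Both shifts use the libraries of day 19, so they are not independent of each other. Krt86 was below the floor of 3 fragments in hairloss at day 28, and its shift there depends on the added 1 FPKM.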

How the results depend on the processing

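Each group has 1 library, so replicate numbers give no pairs, and the libraries were paired by day or by genotype in the tests above. Of 120 alternative values for single genes at single days, 114 kept their direction and their side of 2-fold. Most of them had little or no room to move. Leaving out the filter or keeping only protein-coding genes cannot change these values, and the scaling factors were all near 1. Every change came with a pseudocount. With a pseudocount of 0.1 the day 0 median became -1.04 and 2 genes were lower, against 0. A pseudocount of 5 took Krt82 at day 16 (-0.97) and Krt84 at day 19 (0.71) under 2-fold. The limma count between genotypes, 7, became 3 with a pseudocount of 5, 2 without a filter, 0 with protein-coding genes only, 2 to 6 with 1 day left out, and 46 without days 0 and 28, an alternative chosen after seeing the data. With 1 day left out, the mean difference ran from -3.99 to 0.28 for Krt81, -2.31 to 0.57 for Krt82, -3.76 to 0.67 for Krt83, -1.02 to 0.20 for Krt84, -3.91 to 0.28 for Krt86 and -3.72 to 0.18 for Krt87. It was above 0 only without day 28. Without days 0 and 28, it was 0.78 for Krt81, 1.003 for Krt82, 1.29 for Krt83, 0.0894 for Krt84, 0.66 for Krt86 and 0.58 for Krt87. In none of these fits did 1 of the 6 genes pass, with limma adjusted p-values of 0.485 to 0.964. At the step from day 0 to day 16, 1 of the 6 genes, Krt84, passed with a pseudocount of 0.1 and 1, again Krt84, with protein-coding genes only, and 456 genes passed without a filter. At the step from day 16 to day 19, 1 gene passed with a pseudocount of 5, 1 without a filter and 0 with protein-coding genes only. At the step from day 19 to day 28, 5 genes passed with a pseudocount of 0.1, where the steps of Krt81 (-0.37) and Krt86 (-0.56) turned negative. Krt84 turned positive (0.039) with a pseudocount of 5. The cause of these shifts was not tested beyond the change in genes or libraries named. Depth limits Krt86 and Krt81 in hairloss at day 28 and Krt84 in wildtype at day 0, where few fragments stand behind a value.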
